A study of Saccharomyces cerevisiae with 9 samples.

Results

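The autophagy-related genes of Saccharomyces cerevisiae described here are the rows whose identifier carries a standard symbol of the R64 annotation made of ATG followed directly by a digit. They number 37 of the 7126 annotated features in the files, which is every such symbol in that annotation, and all 37 passed the filter on low values. RNAseq was run on BY4742, a haploid laboratory strain of mating type α that carries his3Δ1, leu2Δ0, lys2Δ0 and ura3Δ0 and is otherwise labelled wild type. Cells were grown for 48 h at 25 °C in YPD, a rich glucose medium, to what the labels call stationary phase. Control cells received no heating. Heat ramp cells went from 25 °C up to 50 °C by 0.5 °C each min and heat shock cells covered the same range by 50 °C each min, and both were then kept at 50 °C for 30 min and brought rapidly back to 25 °C. Each of 3 independent cultures gave 1 library of every group, so that 9 libraries form 3 groups of 3 replicates. All 3 groups share the strain and its deletions, and the ramp took longer than the shock, so the rate of warming and the time spent above 25 °C cannot be told apart.

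Poly(A)+ RNA was read as 50 bp single-end reads. Assigned reads per library ranged from 26859792 to 27233289 in control, from 22579312 to 24415433 after the ramp and from 23543523 to 24341005 after the shock. The values are normalized counts, that is, reads divided by a size factor per library, and these factors were 1.40 to 1.46 in control, 0.610 to 0.714 after the ramp and 1.11 to 1.13 after the shock. The fewest reads on any ATG gene in any library were 44, on ATG38 after the ramp. LEU2, LYS2 and URA3 had 0 reads in every library, a count that allows up to 3 reads. The α-factor gene MFALPHA1 was at 3057 to 22755 normalized counts against 29.4 to 408 for the a-factor gene MFA1. None of the 37 coding sequences holds a 50-base word that recurs elsewhere in the genome (0 of 37). ATG29 overlaps SET6 on the opposite strand by 24 bases, and whether reads were counted by strand is not given in the sources used here.

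Autophagy carries cytoplasm and organelles to the vacuole, the yeast lysosome, inside a double-membrane vesicle, the autophagosome. The Atg1 kinase complex starts the process, a phosphatidylinositol 3-kinase complex and vesicles that carry Atg9 supply lipid and membrane, and a pair of ubiquitin-like systems fixes Atg8 to the growing membrane. Receptors that bind both Atg8 and a cargo make the process selective, and the vesicle is broken down in the vacuole, whose transporters return amino acids to the cytosol. In yeast it is best known as a response to nitrogen starvation, and a constitutive branch, the cytoplasm-to-vacuole targeting (Cvt) pathway, delivers vacuolar enzymes in growing cells.

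The heat ramp against control was tested with limma on log2(normalized count + 1), with adjusted p-values from the Benjamini-Hochberg procedure over 6847 features and a threshold of 0.05. After the ramp 19 ATG genes were higher than in control, 10 were lower and 8 did not pass. Of all features tested 78.5% passed, 39.0% as higher and 39.5% as lower, so that the 78.4% of ATG genes called matched the background share, with 51.4% higher and 27.0% lower. The median log2 fold change of the ATG genes was 0.44, beside -0.01 over all features. The 3 ramp libraries lay wholly above the 3 control libraries for 20 ATG genes and wholly below for 10, where 40.0% and 40.8% of all features did so. In bulk RNA, fewer cells with a transcript and less of it per cell cannot be told apart.

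After the heat shock 5 ATG genes were higher than in control, 20 were lower and 12 did not pass (limma, Benjamini-Hochberg). Over all features 57.6% passed, 29.9% as higher and 27.7% as lower, against 13.5% and 54.1% of the ATG genes. The median log2 fold change was -0.45, beside 0.04 over all features. The shock libraries did not overlap the control libraries for 8 ATG genes that lay above and 21 that lay below, where 34.8% and 33.3% of all features did so. The higher genes were ATG10, ATG22, ATG27, ATG40 and ATG41.

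Set directly against the shock, the ramp gave higher values for 27 ATG genes and lower values for 6 (ATG5, ATG10, ATG12, ATG23, ATG27 and ATG38), while ATG11, ATG13, ATG32 and ATG40 did not pass. Over all features 72.0% passed, 35.9% as higher and 36.1% as lower, against 73.0% and 16.2% of the ATG genes. The median log2 difference was 0.61, beside 0.04 over all features. The libraries of both groups were fully separated, with the ramp above, for 26 ATG genes, and with the ramp below for 6, where 36.6% and 35.4% of all features were.

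These directions rest on the size factors. Scaling each library to its total count instead moved the median of all features by -0.92 for the ramp against control, by -0.17 for the shock against control and by -0.74 for the ramp against the shock. On that scale 2 ATG genes were higher after the ramp (ATG41 and ATG42) and 22 were lower, beside 1325 higher and 4385 lower among all features (83.4% called), and ATG8, ATG20, ATG34 and ATG40 passed in the opposite direction. ATG3, ATG9, ATG10, ATG15, ATG19, ATG21, ATG27 and ATG39, which did not pass with the size factors, were lower after the ramp with the total count. All 10 genes called lower after the ramp with the size factors were lower on both scales. The total count moves all genes down in each of these comparisons, so it could hardly remove a lower call. After the shock 4 were higher and 22 lower on the total count scale, beside 1525 and 2402 among all features (57.4% called), ATG10 was the call lost, and ATG31 and ATG32 were added as lower. Between the heat treatments 9 were higher after the ramp (ATG1, ATG2, ATG3, ATG14, ATG16, ATG20, ATG31, ATG41 and ATG42) and 14 lower, beside 1184 and 4096 among all features (77.1% called), and ATG4, ATG22, ATG26 and ATG36 turned to the opposite call. Other tools moved little, but edgeR and DESeq2 also scale by a factor per library and not by the total count alone. They do not bear on the choice between these scales. On the recovered reads edgeR called 29 ATG genes for the ramp, 26 for the shock and 32 between the treatments, where it called 78.6%, 58.3% and 72.1% of all features. DESeq2 called 29, 25 and 33, where it called 78.7%, 59.7% and 72.0%. With a log2 fold change of at least 1 also required, limma called 7, 4 and 11 ATG genes, beside 45.3%, 17.9% and 40.6% of all features. Total count scaling shifts all genes of a library alike. The distance of the ATG median from the median of all features could therefore hardly change with the scale. It was 0.44 log2 on both for the ramp against control, -0.49 and -0.50 for the shock against control, and 0.58 and 0.57 for the ramp against the shock.

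**Figure D1:**
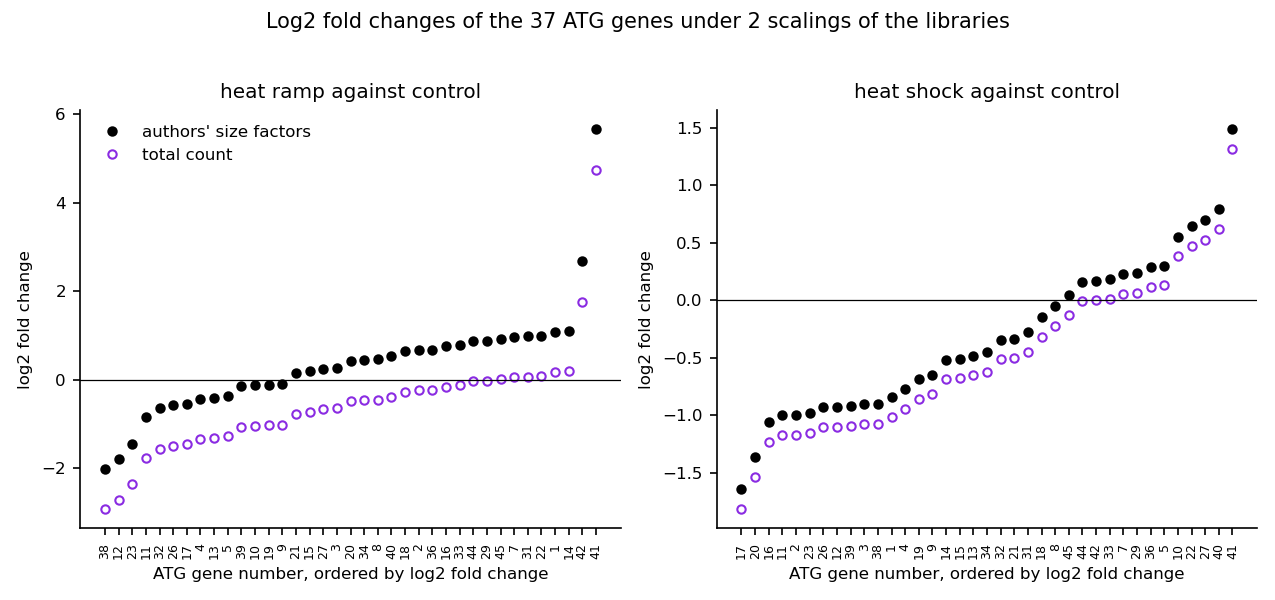
Log2 fold change of each of the 37 ATG genes against control after the ramp (left) and the shock (right), with the authors' size factors (filled) and with the total count (open), genes ordered along the horizontal axis by the filled value and shown by their ATG number. The open points lie below the filled ones for every gene, by 0.92 for the ramp and 0.17 for the shock at the median of all features, and ATG41 stays on top on both scales at 5.66 and 4.75 after the ramp.

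Of all features 39.0% were higher and 39.5% lower after the ramp, and 29.9% and 27.7% after the shock. The share of all features with each joint pattern was not computed, so the counts below only describe these genes. Both comparisons with control share the 3 control libraries, and their own values set side by side sort the genes as follows. With the size factors, 6 genes were higher than control after the ramp and lower after the shock: ATG1, ATG2, ATG14, ATG16, ATG20 and ATG34. None had the opposite pattern (0 of 37), while 8 were lower after both treatments (ATG4, ATG11, ATG12, ATG13, ATG17, ATG23, ATG26 and ATG38) and 3 were higher after both (ATG22, ATG40 and ATG41). A further 10 were higher after the ramp without passing after the shock (ATG7, ATG8, ATG18, ATG29, ATG31, ATG33, ATG36, ATG42, ATG44 and ATG45), and 6 were lower after the shock without passing after the ramp (ATG3, ATG9, ATG15, ATG19, ATG21 and ATG39). ATG5 and ATG32 were lower after the ramp and did not pass after the shock, and ATG10 and ATG27 were higher after the shock and did not pass after the ramp. On the total count scale 0 of the 6 genes with opposite calls remained higher after the ramp. All 6 remained lower after the shock, where that scale moves all genes down as well.

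**Figure D2:**
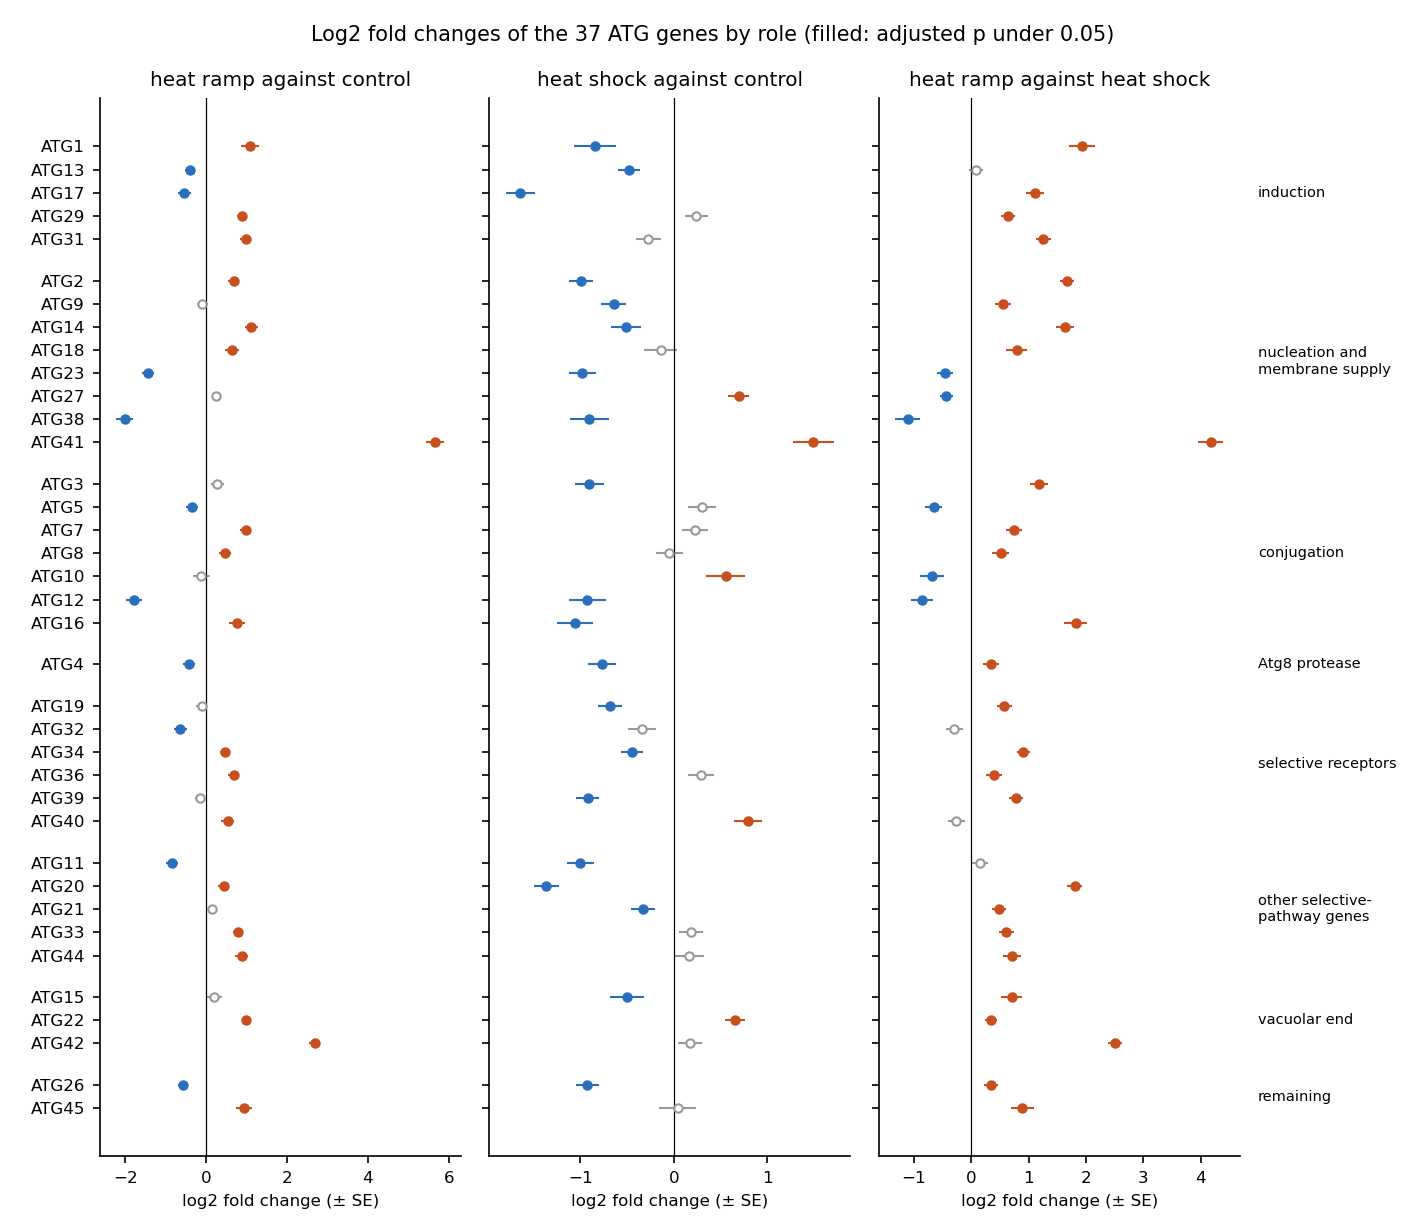
Log2 fold change of each of the 37 ATG genes (points, bars ± 1 SE from limma, 3 libraries per group, filled where the adjusted p is under 0.05) for the ramp against control, the shock against control and the ramp against the shock, grouped by role, with each panel on its own horizontal scale. ATG41 lies far above the rest after the ramp at 5.66, and ATG38 is lowest at -2.01, while after the shock most points lie below 0 and ATG17 is lowest at -1.64.

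ATG41 (YPL250C, also ICY2), which encodes a protein that binds Atg9 and is needed for autophagosome formation, had the highest log2 fold change of the 37 in each comparison. It lies on chromosome XVI at 74309 to 74719 of R64, on the minus strand, in a single coding exon. ATG41 was at 3332, 4222 and 2964 normalized counts in control, at 220299, 161834 and 152712 after the ramp and at 9742, 7189 and 13182 after the shock. Every ramp library stood above every shock library, and every shock library above every control library. The ramp level was 50.7-fold that of control (log2 fold change 5.66, SE 0.219, adjusted p = 8.75e-11 in limma) and the shock level 2.81-fold (1.49, SE 0.219, adjusted p = 8.43e-05). Ramp and shock differed by 4.18 log2 (adjusted p = 1.05e-09). On the total count scale these differences for ATG41 were 4.75, 1.32 and 3.43, with adjusted p-values of 3.71e-11, 0.000109 and 7.9e-10. By fold change ATG41 ranked 27 of 6847 features from the top for the ramp and 457 for the shock.

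ATG41 made up most of the summed level of the family after the ramp. All 37 genes together came to 52982 ± 2194 normalized counts in control, 252036 ± 38468 after the ramp and 52871 ± 2406 after the shock (SD, n = 3). ATG41 made up 6.62% of that sum in control, 70.7% after the ramp and 19.0% after the shock. Without ATG41 the sums, which rest on the size factors, were 49476, 73754 and 42833. As a share of all assigned reads, a measure that the size factors do not touch, the 37 genes took 0.28% in control, 0.705% after the ramp and 0.248% after the shock. That share includes ATG41, and the share of the other genes was not computed, so its rise after the ramp does not describe them. On the total count scale only ATG41 and ATG42 were called higher after the ramp, and 22 ATG genes were lower.

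ATG42 (YBR139W), which encodes a vacuolar serine carboxypeptidase, was next. It was at 3417, 2740 and 2837 normalized counts in control, 20778, 17228 and 19593 after the ramp and 3512, 3404 and 3181 after the shock. The ramp libraries lay far above the others, and the control and shock libraries overlapped. The fold change was 6.41 after the ramp (log2 2.68, SE 0.127, adjusted p = 4.78e-10, limma) and 1.13 after the shock (log2 0.17, adjusted p = 0.261). The ramp exceeded the shock by 2.51 log2 (adjusted p = 7.74e-10), and on the total count scale ATG42 was still 1.76 log2 above control after the ramp.

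**Figure D3:**
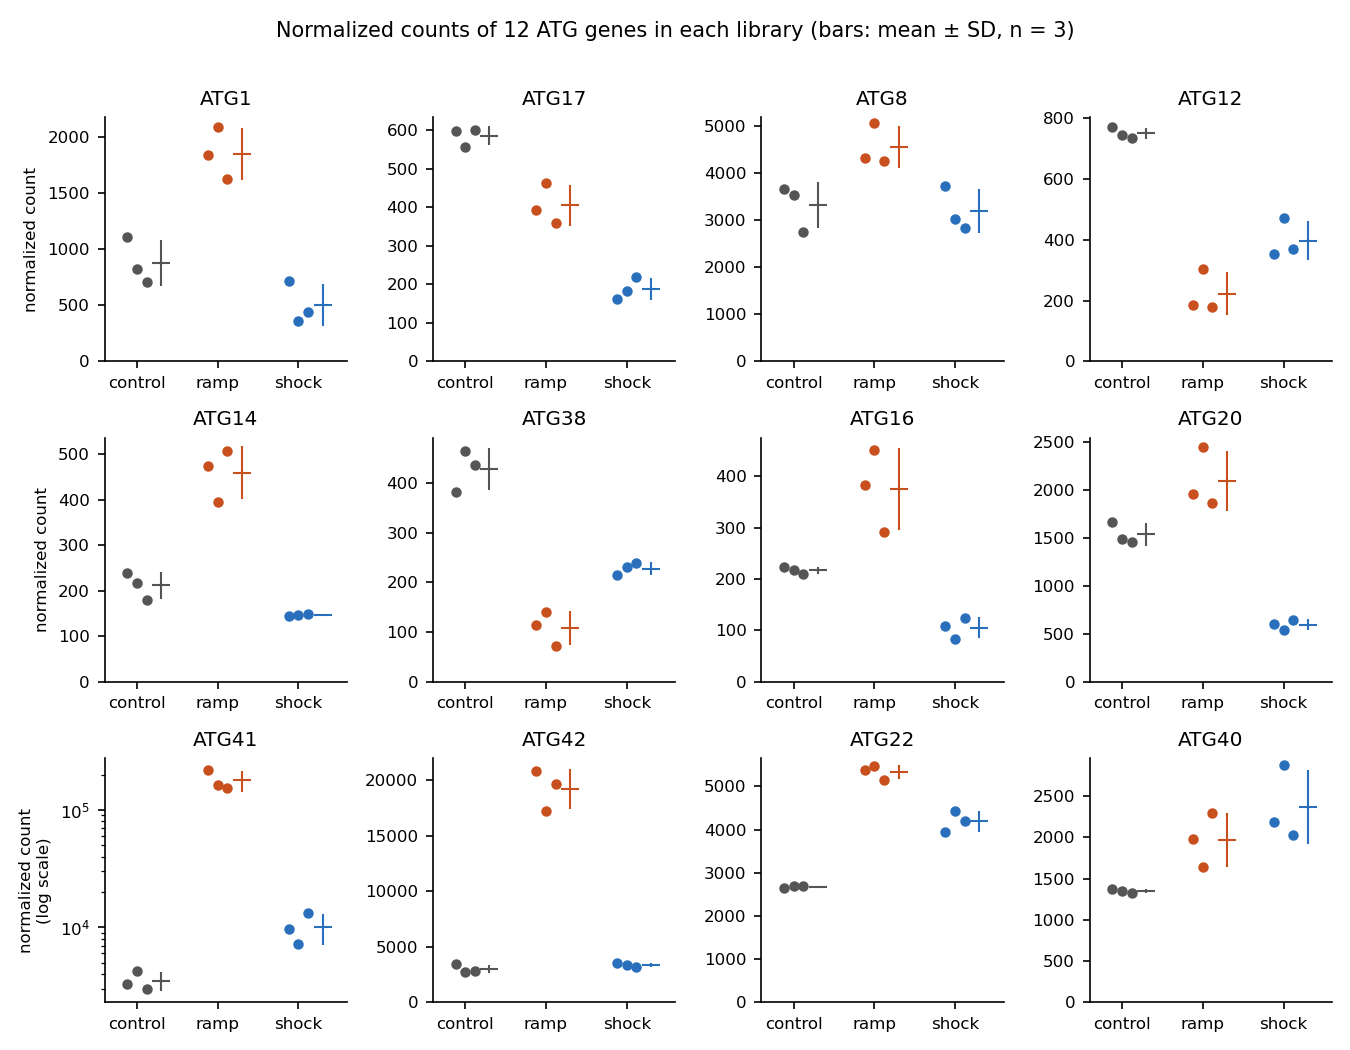
Normalized counts of 12 ATG genes in each of the 9 libraries (points, replicates 1 to 3 from left to right, with bars for the mean ± SD), on a logarithmic axis for ATG41 and from 0 for the others. The ramp libraries of ATG41 reach 152712 to 220299 against 2964 to 4222 in control, and those of ATG38 lie at 72.1 to 140.1 against 381 to 465.

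The start regions of 4 genes are shown because their transcripts mark the range seen here: ATG41 and ATG42 were the highest after the ramp, ATG38 was the lowest, and ATG8 encodes the ubiquitin-like protein that is fixed to the autophagosome membrane. Each is 250 bases before the start codon and 50 from it, cut from the R64 genome of RefSeq and read 5′ to 3′ on the coding strand. Capitals mark matches to 4 words, searched on both strands. AGGGG is the stress response element of yeast. GATAAG is the element that factors of the GATA family bind. GGCGGC is the core of the upstream repressing sequence URS1. GAANNTTC is a heat shock element made of inverted units. The windows are chrXVI:74670-74969 for ATG41 (minus strand), chrII:515414-515713 for ATG42 (plus strand), chrII:80682-80981 for ATG8 (minus strand) and chrXII:564482-564781 for ATG38 (minus strand).
ATG41: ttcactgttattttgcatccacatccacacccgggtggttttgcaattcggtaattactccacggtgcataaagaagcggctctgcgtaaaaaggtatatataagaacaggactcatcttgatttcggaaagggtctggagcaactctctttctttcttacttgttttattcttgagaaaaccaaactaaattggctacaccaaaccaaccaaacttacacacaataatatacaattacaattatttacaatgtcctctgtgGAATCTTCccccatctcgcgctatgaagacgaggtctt
ATG42: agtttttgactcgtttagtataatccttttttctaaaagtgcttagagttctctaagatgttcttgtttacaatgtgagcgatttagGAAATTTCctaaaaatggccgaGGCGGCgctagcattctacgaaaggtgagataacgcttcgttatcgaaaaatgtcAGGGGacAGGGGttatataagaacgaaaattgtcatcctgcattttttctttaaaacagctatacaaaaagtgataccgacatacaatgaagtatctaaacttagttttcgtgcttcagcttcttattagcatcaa
ATG8: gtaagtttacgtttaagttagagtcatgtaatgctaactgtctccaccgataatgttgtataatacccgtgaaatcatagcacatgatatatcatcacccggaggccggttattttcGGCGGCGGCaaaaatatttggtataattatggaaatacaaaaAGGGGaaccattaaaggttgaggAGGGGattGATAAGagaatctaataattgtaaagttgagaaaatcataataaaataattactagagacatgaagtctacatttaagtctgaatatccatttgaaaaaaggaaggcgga
ATG38: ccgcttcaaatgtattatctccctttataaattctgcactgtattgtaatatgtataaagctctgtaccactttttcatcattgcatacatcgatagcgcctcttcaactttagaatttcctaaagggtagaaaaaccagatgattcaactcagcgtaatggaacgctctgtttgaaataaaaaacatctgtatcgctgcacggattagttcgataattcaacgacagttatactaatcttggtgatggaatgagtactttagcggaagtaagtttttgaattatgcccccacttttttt

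The ATG8 window holds AGGGG at -91 and -68, GATAAG at -60 and overlapping GGCGGC matches at -133 and -130, counted from the first base of the start codon as 0 to the first base of the match. The ATG42 window holds AGGGG at -86 and -79, GGCGGC at -141 and GAANNTTC at -163. In ATG41 the only match is GAANNTTC at 12, inside the coding sequence, and ATG38 has none of the 4 words. A match is a description of letters and no match says only that these letters are not in this window. Over 6007 windows of 300 bases, AGGGG occurred in 21.6% of all genes and in 8 of the 37 ATG genes (21.6%). GATAAG occurred in 14.7% and in 10 (27.0%), GGCGGC in 5.14% and in 3 (8.11%), and GAANNTTC in 11.8% and in 5 (13.5%). Of the 8 ATG genes with AGGGG, 5 were higher and 0 lower after the ramp, with a median log2 fold change of 0.45, and of the 29 without it 14 were higher and 10 lower, with a median of 0.28. With the total count 1 of the 8 was higher and 6 lower after the ramp (median -0.47), and of the 29 without it 1 was higher and 16 lower (median -0.64). For the 5 with GAANNTTC the median after the ramp was 0.44, against 0.37 for the 32 without, and with the total count -0.48 against -0.55. With the size factors the GAANNTTC medians were 0.17 against -0.47 after the shock and 1.80 against 0.56 for the ramp against the shock. The other words also had higher medians after the shock. These were -0.25 against -0.48 for AGGGG, -0.24 against -0.48 for GATAAG and -0.05 against -0.47 for GGCGGC. For the ramp against the shock they had 0.61 against 0.61, 0.56 against 0.75 and 0.57 against 0.63. Medians after the ramp were 0.33 with GATAAG and 0.44 without, and 0.46 with GGCGGC and 0.36 without. These differences between small groups were not tested.

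Induction genes encode the Atg1 kinase and the scaffold and regulatory subunits around it. After the ramp 3 of the 5 were higher (ATG1, ATG29 and ATG31) and 2 lower (ATG13 and ATG17), and after the shock 0 were higher and 3 lower (ATG1, ATG13 and ATG17). None of the 3 higher calls after the ramp held on the total count scale. The lower calls all did, but that scale moves all genes down. ATG1 (YGL180W), the kinase, was at 1104, 818 and 708 normalized counts in control, 1838, 2081 and 1622 after the ramp and 712, 357 and 438 after the shock. The ramp libraries were all above the control ones, and the highest shock library, at 712, lay just above the lowest control library. ATG1 was 2.13-fold higher after the ramp (log2 1.09, SE 0.224, adjusted p = 0.000475, limma) and fell by 0.84 log2 after the shock (adjusted p = 0.00586). The difference between ramp and shock was 1.93 log2 (adjusted p = 2.57e-06) and stayed at 1.19 on the total count scale (adjusted p = 0.000186).

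ATG17 (YLR423C), the scaffold that holds the starvation-induced complex together, had the largest fall of all ATG genes after the shock. It was at 598, 557 and 601 normalized counts in control, 392, 464 and 359 after the ramp and 162, 183 and 218 after the shock. The 3 groups did not overlap, with control highest and the shock lowest. The log2 fold change was -1.64 after the shock (SE 0.155, adjusted p = 2.34e-06, limma), the 37th lowest of 6847 features, and -0.54 after the ramp (adjusted p = 0.00559). ATG29 and ATG31, whose products bind Atg17 directly, were at 0.88 and 0.98 after the ramp. After the shock they were at 0.24 and -0.27, and neither passed (adjusted p = 0.115 and 0.09, limma). All shock libraries of ATG29 lay above its control libraries. Those of ATG31, at 492, 447 and 496 normalized counts, lay below control, at 551, 595 and 587. ATG31 passed as lower after the shock with the total count (-0.44, adjusted p = 0.0136). It also passed with only the groups compared in the fit (adjusted p = 0.042). ATG13, the regulatory subunit that links Atg1 to Atg17, was lower by similar amounts after both treatments, at -0.40 and -0.48 log2.

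Ratios of transcripts within a library do not depend on the scaling, and per kb of coding sequence the ATG29 to ATG17 ratio ranged from 1.88 to 2.14 in control, from 4.32 to 6.37 after the ramp and from 6.55 to 8.84 after the shock. The ATG31 to ATG17 ratio was 1.95 to 2.27, 4.98 to 7.21 and 4.82 to 6.42 in the same order. For both ratios every heated library was above every control library. The ATG1 to ATG13 ratio was 0.410 to 0.582 in control, 1.28 to 1.36 after the ramp and 0.279 to 0.529 after the shock, so that only the ramp stood apart. These partner ratios were picked after the values had been seen and are given as descriptions, with no test.

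Nucleation and membrane supply covers the subunits of the phosphatidylinositol 3-kinase complex that are particular to autophagy and the proteins that bring in membrane. After the ramp 4 of the 8 were higher (ATG2, ATG14, ATG18 and ATG41) and 2 lower (ATG23 and ATG38), and of the higher ones only ATG41 held on the total count scale. After the shock 2 were higher (ATG27 and ATG41) and 5 lower (ATG2, ATG9, ATG14, ATG23 and ATG38). Those calls held on that scale, which moves all genes down and could hardly remove the lower ones. ATG14 and ATG38 encode the subunits that direct the kinase to autophagy, and they moved apart after the ramp. ATG14 (YBR128C) was at 238, 217 and 180 normalized counts in control, 474, 395 and 508 after the ramp and 146, 146 and 149 after the shock. The 3 groups were fully separated, with the ramp highest. ATG14 was 2.17-fold higher after the ramp (log2 1.11, SE 0.162, adjusted p = 2.12e-05, limma) and fell by 0.52 log2 after the shock (adjusted p = 0.0144), a call lost without control replicate 1. On the total count scale ATG14 was at 0.20 after the ramp and did not pass (adjusted p = 0.27).

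ATG38 (YLR211C) was at 381, 465 and 437 normalized counts in control, 114, 140 and 72.1 after the ramp and 214, 230 and 239 after the shock. Again no groups overlapped, here with control highest and the ramp lowest. The ramp level was 4.04-fold below control (log2 -2.01, SE 0.212, adjusted p = 9.1e-07, limma), the shock level 1.87-fold below (-0.90, adjusted p = 0.00265), and ramp and shock differed by -1.11 log2 (adjusted p = 0.000301). Per kb, the ATG14 to ATG38 ratio was 0.271 to 0.411 in control, 1.86 to 4.64 after the ramp and 0.411 to 0.447 after the shock. The ramp libraries rest on the fewest reads of any ATG gene, 44 at the least.

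ATG2 (YNL242W), which encodes the lipid transfer protein at the edge of the growing membrane, was at 1325, 1250 and 1330 normalized counts in control, 2325, 1968 and 1973 after the ramp and 606, 611 and 750 after the shock. The groups did not overlap, the ramp being highest and the shock lowest. The log2 fold changes were 0.68 (SE 0.126, adjusted p = 0.000205, limma) and -1.0 (adjusted p = 2.48e-05). ATG18, whose product binds phosphatidylinositol 3-phosphate together with Atg2, was higher after the ramp at 0.65 log2 and not called after the shock at -0.14.

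Atg23 and Atg27 are both needed for the cycling of Atg9, and their transcripts differed. ATG23 (YLR431C) was at 1352, 1478 and 1516 normalized counts in control, 477, 617 and 515 after the ramp and 750, 625 and 844 after the shock. All heated libraries were below all control ones, and ramp and shock libraries did not overlap. ATG23 was 2.71-fold below control after the ramp (log2 -1.44, SE 0.144, adjusted p = 5.15e-07, limma) and 1.97-fold below after the shock (-0.98, adjusted p = 8.33e-05). ATG27 (YJL178C) was at 2540, 2482 and 2732 normalized counts in control, 3225, 3068 and 2959 after the ramp and 4194, 4550 and 3826 after the shock. Here control was lowest and the shock highest, with no overlap between groups. The shock raised ATG27 1.62-fold (log2 0.69, SE 0.112, adjusted p = 0.00018), and the ramp value, 0.26, missed the threshold (adjusted p = 0.0509). ATG9 itself, the scramblase carried by these vesicles, was at -0.09 after the ramp (adjusted p = 0.533) and fell by 0.65 log2 after the shock (adjusted p = 0.00122).

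Conjugation genes encode the enzymes and the ubiquitin-like proteins that fix Atg8 to lipid. Of the 7, 3 were higher (ATG7, ATG8 and ATG16) and 2 lower (ATG5 and ATG12) after the ramp, and 1 was higher (ATG10) and 3 lower (ATG3, ATG12 and ATG16) after the shock. On the total count scale none of the higher calls held and ATG8 passed as lower after the ramp. All the lower calls held, on a scale that moves all genes down. ATG8 (YBL078C) was at 3658, 3522 and 2757 normalized counts in control, 4308, 5061 and 4262 after the ramp and 3720, 3024 and 2839 after the shock. The ramp libraries were highest, and control and shock overlapped. The log2 fold change was 0.46 after the ramp (SE 0.145, adjusted p = 0.00948, limma) and -0.05 after the shock (adjusted p = 0.775). The ramp call was lost without control replicate 3 (adjusted p = 0.0668), and on the total count scale ATG8 was at -0.45 (adjusted p = 0.0143), so its direction after the ramp depends on the scaling.

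Atg12, Atg5 and Atg16 form 1 complex that acts as the ligase for Atg8, and their transcripts went different ways. ATG12 (YBR217W), the ubiquitin-like protein of the complex, was at 772, 744 and 735 normalized counts in control, 186, 306 and 179 after the ramp and 353, 473 and 368 after the shock. No groups overlapped, and the ramp was lowest. It was 3.45-fold below control after the ramp (log2 -1.79, SE 0.195, adjusted p = 1.25e-06, limma) and 1.90-fold below after the shock (-0.93, adjusted p = 0.00124), and ramp and shock differed by -0.86 log2 (adjusted p = 0.00116). ATG16 (YMR159C), the subunit that joins a pair of the conjugates, was at 224, 218 and 210 normalized counts in control, 384, 451 and 292 after the ramp and 109, 83.2 and 124 after the shock. Here the ramp was highest and the shock lowest, again without overlap. ATG16 was at 0.76 log2 after the ramp (adjusted p = 0.00263) and at -1.06 after the shock (SE 0.196, adjusted p = 0.000494). ATG5, the partner to which Atg12 is joined, was at -0.35 after the ramp (adjusted p = 0.0401), a call lost in DESeq2 and without any 1 of 5 libraries, and at 0.30 after the shock, where it did not pass (adjusted p = 0.0937).

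Per kb, the ATG16 to ATG12 ratio was 0.355 to 0.362 in the 3 control libraries, 1.83 to 2.56 after the ramp and 0.218 to 0.417 after the shock. The ATG8 to ATG12 ratio was 5.95 to 7.51 in control, 26.3 to 37.8 after the ramp and 10.1 to 16.7 after the shock. In both ratios the ramp libraries stood above all the others.

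The enzymes of the pathway also differed among themselves. ATG10 (YLL042C), the conjugating enzyme for Atg12, was at 106, 142 and 118 normalized counts in control, 114, 111 and 108 after the ramp and 197, 218 and 132 after the shock. Its shock libraries overlapped control, where the highest library was at 142. ATG10 was 1.47-fold higher after the shock (log2 0.56, SE 0.209, adjusted p = 0.0348, limma), and the call was lost without any 1 of control replicates 1 and 3 or shock replicates 1 and 2, and on the total count scale (adjusted p = 0.151). ATG7, the activating enzyme that serves both ubiquitin-like proteins, was at 0.98 after the ramp (adjusted p = 1.92e-05) and 0.23 after the shock (adjusted p = 0.174). ATG3, the conjugating enzyme for Atg8, was at 0.28 after the ramp (adjusted p = 0.115) and fell by 0.90 log2 after the shock (adjusted p = 0.000266). ATG4, the protease that processes Atg8 and releases it from lipid, was lower after both, at -0.42 (adjusted p = 0.0162) and -0.77 (adjusted p = 0.000594), and the ramp call of ATG4 was lost without control replicate 1 or ramp replicate 3 (adjusted p = 0.099 and 0.0562).

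**Figure D4:**
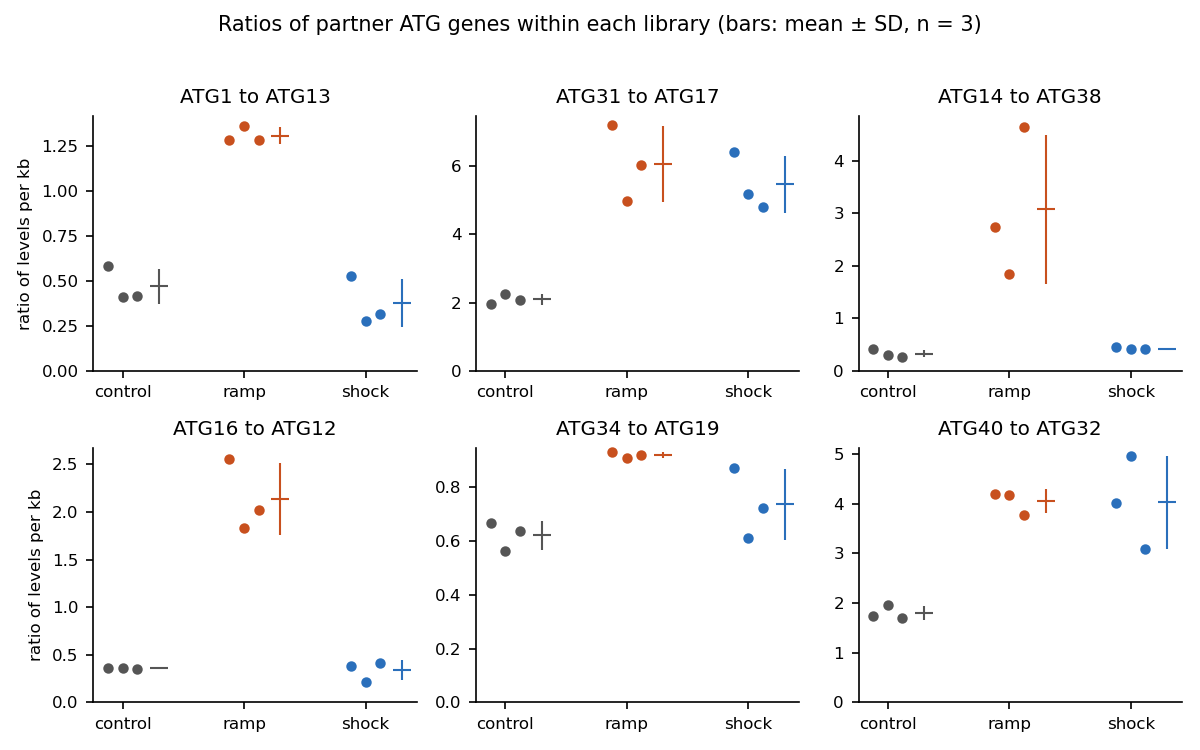
Ratios of normalized counts per kb of coding sequence within each library for 6 pairs of transcripts whose products work together or alike (points, replicates 1 to 3, with bars for the mean ± SD, n = 3). The ATG14 to ATG38 and ATG16 to ATG12 ratios exceed 1.8 in every ramp library and stay below 0.42 in control, and the ATG31 to ATG17 ratio is above 4.8 in every heated library.

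Selective receptors bind a cargo and Atg8. Of the 6 grouped here, 3 were higher (ATG34, ATG36 and ATG40) and 1 lower (ATG32) after the ramp, and 1 was higher (ATG40) and 3 lower (ATG19, ATG34 and ATG39) after the shock. ATG45, whose product is a receptor for glycogen, is not counted in this group and is given further below. With the total count ATG34 and ATG40 passed as lower after the ramp and ATG36 did not pass. ATG40 (YOR152C), the receptor for the endoplasmic reticulum, was at 1381, 1352 and 1325 normalized counts in control, 1980, 1641 and 2292 after the ramp and 2192, 2880 and 2031 after the shock. Both heated groups were above control and overlapped each other. ATG40 was 1.73-fold higher after the shock (log2 0.79, SE 0.151, adjusted p = 0.000612, limma) and at 0.53 after the ramp (adjusted p = 0.00533), but at -0.39 after the ramp with the total count.

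ATG34 and ATG19 are paralogs and near neighbours on chromosome XV that encode receptors for vacuolar hydrolases. ATG34 (YOL083W) was at 1187, 1246 and 1230 normalized counts in control, 1747, 1697 and 1589 after the ramp and 1010, 874 and 806 after the shock. Groups did not overlap, the ramp being highest and the shock lowest. The log2 fold changes were 0.46 (SE 0.119, adjusted p = 0.00284, limma) and -0.45 (adjusted p = 0.00533). ATG19, the receptor of the Cvt pathway, was at -0.11 after the ramp (adjusted p = 0.441) and at -0.68 after the shock (adjusted p = 0.0006). The ATG34 to ATG19 ratio per kb was 0.563 to 0.666 in control, 0.911 to 0.930 after the ramp and 0.611 to 0.874 after the shock.

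ATG32, the mitophagy receptor, was lower after the ramp at -0.64 (adjusted p = 0.00165, limma) and at -0.34 after the shock (adjusted p = 0.0705). With the culture as a replicate block the shock value for ATG32 passed (adjusted p = 0.0449). ATG36, the receptor for peroxisomes, was at 0.68 after the ramp (adjusted p = 0.000365) and 0.29 after the shock (adjusted p = 0.0848). ATG39, the receptor for the nuclear envelope, was at -0.15 after the ramp (adjusted p = 0.297) and fell by 0.92 log2 after the shock (adjusted p = 4.48e-05). The ATG40 to ATG32 ratio per kb was 1.71 to 1.97 in control, 3.78 to 4.2 after the ramp and 3.09 to 4.96 after the shock, above control in every heated library.

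Beside the receptors stand 5 genes of selective pathways, of which ATG20, ATG33 and ATG44 were higher and ATG11 lower after the ramp, and ATG11, ATG20 and ATG21 lower after the shock. With the total count ATG20 passed as lower after the ramp and ATG33 and ATG44 did not pass. ATG20 (YDL113C), a sorting nexin, was at 1671, 1487 and 1454 normalized counts in control, 1963, 2447 and 1866 after the ramp and 603, 542 and 649 after the shock. The shock libraries were far below the others, and the ramp ones were above control. ATG20 was 2.57-fold below control after the shock (log2 -1.36, SE 0.133, adjusted p = 3.16e-06, limma) and at 0.44 after the ramp (adjusted p = 0.0081). ATG11, the scaffold that gathers receptors and the Atg1 complex, was at -0.85 log2 after the ramp (adjusted p = 7.68e-05) and at -1.0 after the shock (adjusted p = 6.08e-05). ATG33 and ATG44 act on mitochondria, and after the ramp they were at 0.80 and 0.88 (adjusted p = 5.32e-05 and 0.000133). ATG21, which binds phosphatidylinositol 3-phosphate, fell by 0.33 log2 after the shock (adjusted p = 0.0358), a call that did not survive the removal of any 1 of 5 libraries.

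Of the 3 genes of the vacuolar end of the pathway, ATG22 and ATG42 were higher after the ramp (with the total count ATG42 alone), and after the shock ATG22 was higher and ATG15 lower. ATG22 (YCL038C), which encodes an exporter of amino acids from the vacuole, was at 2638, 2688 and 2687 normalized counts in control, 5377, 5475 and 5151 after the ramp and 3949, 4434 and 4191 after the shock. The groups were fully separated, with control lowest and the ramp highest. ATG22 was 2.00-fold higher after the ramp (log2 1.00, SE 0.106, adjusted p = 1.02e-06, limma) and 1.57-fold higher after the shock (0.65, adjusted p = 0.000198), and with the total count it was at 0.08 after the ramp (adjusted p = 0.535) and 0.48 after the shock (adjusted p = 0.00328). ATG15, the vacuolar lipase that opens the inner vesicle, was at 0.20 after the ramp (adjusted p = 0.322) and -0.51 after the shock (adjusted p = 0.0278), a call that did not survive the removal of any 1 of 4 libraries. ATG26, a sterol glucosyltransferase, was at -0.58 log2 after the ramp and at -0.93 after the shock (adjusted p = 0.000642 and 3.79e-05), and ATG45, whose product is a receptor for glycogen, was at 0.93 (adjusted p = 0.000616) and 0.04 (adjusted p = 0.863).

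Levels can be set between genes only per length of coding sequence. Dividing by length takes the reads as spread evenly over it, which was not tested on this poly(A)+ RNA. In control the highest mean per kb was that of ATG8, at 9357 normalized counts, followed by ATG41 at 8530, ATG44 at 4040, ATG33 at 3556 and ATG27 at 3167, and the lowest was that of ATG14, at 205. After the ramp ATG41 was highest at 433775 and ATG38 lowest at 160 (normalized counts per kb). After the shock ATG41 was again highest at 24423, and ATG2 was lowest at 137. Over the 37 genes the median per kb was 962 in control, 905 after the ramp and 724 after the shock.

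**Figure D5:**
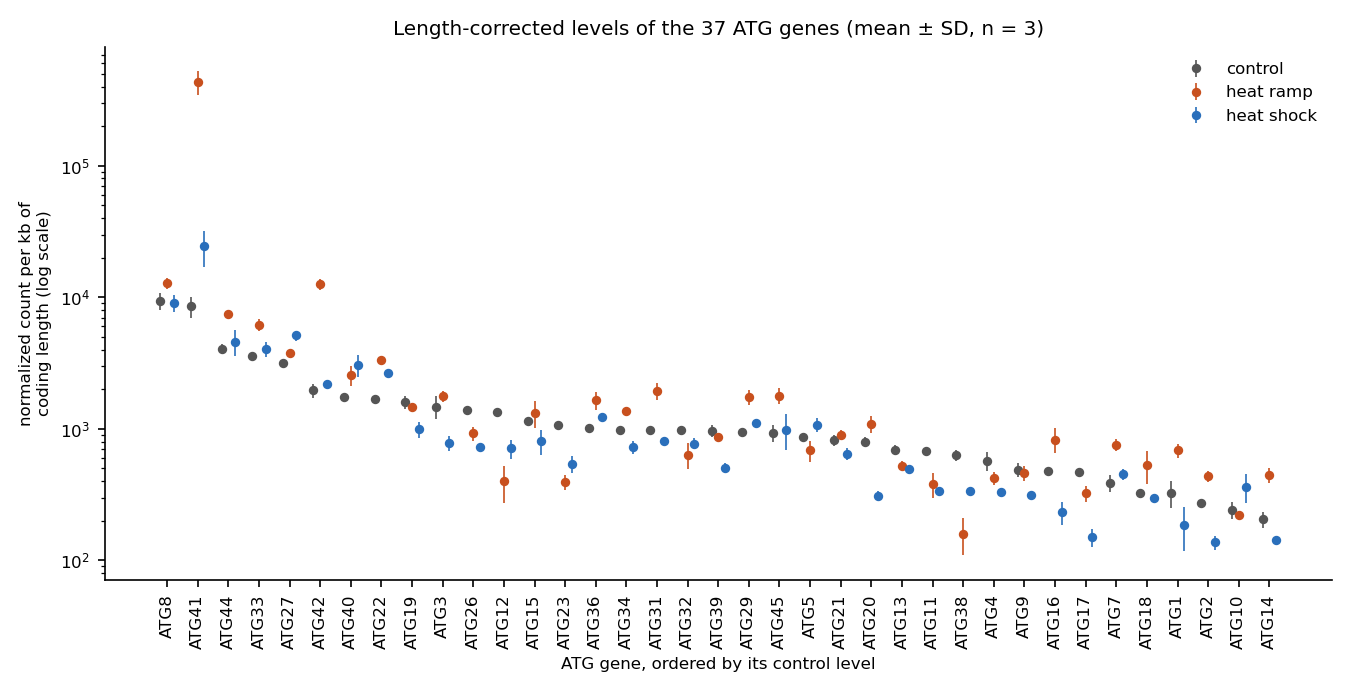
Mean ± SD of the normalized counts per kb of coding sequence of the 37 ATG genes in control, after the ramp and after the shock (n = 3 each), on a logarithmic axis, ordered by the control level. ATG8 leads in control at 9357 and ATG41 leads after the ramp at 433775 and after the shock at 24423.

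Genes that serve autophagy and vacuole fusion under other names were taken as a list of 24, all of them tested. After the ramp 4 were higher and 11 lower, with a median log2 fold change of -0.25, and after the shock 1 was higher and 13 lower, with a median of -0.39. Of all features 39.0% were higher and 39.5% lower after the ramp, and 29.9% and 27.7% after the shock. With the total count the list gave 0 and 21 after the ramp and 0 and 16 after the shock. All 6847 features then gave 1325 and 4385, and 1525 and 2402. VAC8, a vacuolar membrane protein that also anchors Atg13, was highest after the ramp at 1.17 (adjusted p = 8.65e-07, limma). VPS16, a subunit of the vesicle tethering complexes of the vacuole, was at -1.05 and HSV2, a relative of ATG18, at -0.79 (adjusted p = 4.2e-06 and 0.000173). VPS30 (also ATG6) and VPS34, which share the kinase complex with Atg14 and Atg38, were at 0.16 and -0.07 after the ramp, where neither passed (adjusted p = 0.313 and 0.577), and at -0.74 and -0.38 after the shock, where both passed (adjusted p = 0.000676 and 0.013). VPS15, the regulatory kinase of the same complex, was higher after both, at 0.75 and 0.43 (adjusted p = 0.00062 and 0.0314). SNX4 (also ATG24), the partner of Atg20, was at -0.31 after the ramp (adjusted p = 0.0851) and fell by 1.19 after the shock (adjusted p = 3.53e-05). CUE5, a receptor for ubiquitylated cargo, fell by 1.43 after the shock (adjusted p = 3.34e-06) and was at -0.10 after the ramp (adjusted p = 0.528). VTI1, a SNARE of vacuole fusion, fell by 1.12 after the shock (adjusted p = 0.000159). Between the heat treatments 11 were higher after the ramp and 6 lower, led by VPS13, a lipid transfer protein, at 1.38 log2 and by CUE5 at 1.33 and VTI1 at 1.16 (adjusted p = 3.33e-06, 1e-06 and 4.31e-05). The total count turned that split round, to 4 higher and 15 lower, with VPS13, CUE5 and VTI1 still higher. Of all features 35.9% were higher and 36.1% lower with the size factors, and 1184 and 4096 of 6847 with the total count. VPS30, VPS34 and VPS15 are named for their complex, after their values had been seen.

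The 3 cargo enzymes of the Cvt pathway were all higher after the ramp, where 39.0% of all features were. Of these enzymes APE1 alone held on the total count scale. APE1, its main aminopeptidase, was at 2219, 2346 and 1773 normalized counts in control, 9728, 8071 and 9247 after the ramp and 2323, 2563 and 2399 after the shock. Only the ramp libraries of APE1 stood apart by far (log2 2.10, SE 0.131, adjusted p = 4.87e-09, limma), and the shock value was 0.21 (adjusted p = 0.183). AMS1, an α-mannosidase, was at 0.80 after the ramp and fell by 0.96 after the shock (adjusted p = 1.87e-05 and 1.56e-05), and APE4 was at 0.93 and 0.34 (adjusted p = 1.41e-05 and 0.0355).

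Signalling genes upstream of autophagy, a list of 20, split evenly after the ramp, with 9 higher and 9 lower, and gave 2 higher and 8 lower after the shock. All features were near an even split too, at 39.0% and 39.5% after the ramp and 29.9% and 27.7% after the shock. The total count gave 4 higher and 14 lower after the ramp, 1 and 10 after the shock and 6 and 12 between the heat treatments. All 6847 features then gave 1325 and 4385, 1525 and 2402, and 1184 and 4096. BCY1, the regulatory subunit of protein kinase A, was at 2.13 after the ramp (adjusted p = 6.22e-09, limma), and LST8, a subunit of the TOR complexes, was at 1.97 (adjusted p = 9.37e-09). After the shock TCO89, another TORC1 subunit, was at -1.36 (adjusted p = 2.55e-06), SNF1, the kinase of the energy-sensing complex, at -1.13 (adjusted p = 3.16e-05), and SEA4, of a complex that regulates TORC1, at -1.02 (adjusted p = 0.000252). Between the heat treatments 8 were higher after the ramp and 8 lower, beside 35.9% and 36.1% of all features. LST8 and BCY1 differed by 2.38 and 2.04 log2 there (adjusted p = 1.63e-09 and 1.01e-08, limma).

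Regulators known in yeast to act on ATG transcription were a list of 14. After the ramp 12 were lower and 1, PHO23, was higher, and after the shock 6 were lower and 0 higher (with the total count 13 and 0, and 7 and 0, and 12 lower and 1 higher between the heat treatments). Of all features 39.5% were lower and 39.0% higher after the ramp, and 27.7% and 29.9% after the shock. With the total count 4385 of 6847 features were lower after the ramp, 2402 after the shock and 4096 between the heat treatments. DAL80 and GZF3, GATA repressors, were at -2.02 and -1.65 after the ramp and GAT1, a GATA activator, at -1.74 (adjusted p = 5.16e-07, 3.64e-08 and 1.15e-06, limma). UME6, which represses ATG8 through URS1, fell by 0.90 after the ramp (adjusted p = 5.59e-06) and was at 0.13 after the shock (adjusted p = 0.359). RPH1, a repressor of ATG genes, fell by 1.24 after the ramp (adjusted p = 2.86e-07), and MSN4, which binds the stress response element, was at -1.39 and -1.52 after the ramp and the shock (adjusted p = 1.83e-07 and 7.46e-07). After the shock DAL80 was at -1.05 and SIN3, of a corepressor complex, at -1.04 (adjusted p = 0.000623 and 6.31e-06). Between the heat treatments 2 were higher after the ramp and 9 lower, beside 35.9% and 36.1% of all features. GAT1 was at -2.09, GZF3 at -1.90 and PHO23 at 1.18 log2 there (adjusted p = 1.87e-07, 9.83e-09 and 1.78e-06, limma). UME6 and RPH1 were picked after their values had been seen. These are levels of transcripts, and the activity of the factors was not measured.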

How the data were processed

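RNA of 9 libraries from 3 cultures was analysed, grouped by the treatment in the labels. Per the labels and the study's methods, the authors trimmed reads with Trimmomatic 0.32, aligned them to SacCer3 with Bowtie2 and tested with DESeq2. The counting tool, the annotation and the strand setting are not given in the sources used here. The deposited values are a signal per feature, the reads divided by a DESeq2 size factor. Reads came out whole for 100% of values within 0.05 of a read, so that both reads and factors are known. The authors' own fold changes and p-values were not used.

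Genes were matched by locus tag to R64 of RefSeq, the assembly SacCer3 names (6048 of 7126 identifiers). The test was limma 3.58.1 (R 4.3.3, lmFit and eBayes with trend, two-sided) on log2(normalized count + 1) over all 9 libraries, group only, for 6847 features with a mean of at least 10. Fold changes are on that scale, which understates low genes. An exact permutation of 3 against 3 cannot go below p = 0.1, so it was not used. On the recovered reads, edgeR 4.0.16 called 5383, 3991 and 4937 features and DESeq2 1.42.0 called 5388, 4090 and 4930 (ramp against control, shock against control, ramp against shock). Other settings were the pseudocount (0.1 or 5), no filter, TMM or total count scaling, only the groups compared, the culture as a block, a log2 minimum of 1 and each library left out. The fits were tested on simulated data in which few features changed, as many up as down. That setting differs from these data and does not bear on the choice of scale.

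Each culture gave 1 library per group, as a supplementary file of the study states, so replicate numbers pair the samples. Deviations from the group means correlated between libraries of 1 culture by 0.03, -0.20 and -0.01 (control and ramp), 0.29, 0.04 and 0.05 (control and shock) and -0.05, -0.05 and 0.01 (ramp and shock). Between libraries of different cultures the correlations ran from -0.15 to 0.17, from -0.18 to 0.14 and from -0.11 to 0.12 in the same order.

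Members and lists were chosen with earlier results of these data known. Values per library are given for the 3 highest and 3 lowest ATG genes called in each comparison for genes called in opposite directions, and for ATG1 and ATG8, and ATG22 and APE1 were added after their values had been seen. Of each other list, the 3 genes with the largest change called in each comparison are named, except 1 that is not reported here. Start regions were cut from the genome.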

Additional observations from a re-analysis of the deposited data

How the results depend on the processing

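With total count scaling 2 ATG genes were called higher and 22 lower for the ramp against control (median log2 fold change -0.48), 9 higher and 14 lower for the ramp against the shock (median -0.13), and the median for the shock against control was -0.62. For the ramp against control the log2 fold change turned negative for ATG2 (-0.24), ATG3 (-0.64), ATG8 (-0.45), ATG15 (-0.72), ATG16 (-0.15), ATG18 (-0.27), ATG20 (-0.48), ATG21 (-0.76), ATG27 (-0.66), ATG29 (-0.035), ATG33 (-0.12), ATG34 (-0.46), ATG36 (-0.23), ATG40 (-0.39) and ATG44 (-0.036). For the shock against control it turned for ATG44 (-0.0091) and ATG45 (-0.13). For the ramp against the shock it turned for ATG4 (-0.40), ATG8 (-0.23), ATG9 (-0.19), ATG11 (-0.59), ATG13 (-0.66), ATG15 (-0.039), ATG19 (-0.17), ATG21 (-0.26), ATG22 (-0.40), ATG26 (-0.40), ATG29 (-0.10), ATG33 (-0.13), ATG36 (-0.35) and ATG44 (-0.027). This scaling adds 1 shift per library to all genes, and which scale fits the RNA content of the cells was not tested.

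With a log2 fold change of at least 1 also required, which can only remove calls, the ramp against control gave 4 higher and 3 lower, the shock against control 1 and 3, and the ramp against the shock 10 and 1. TMM scaling moved the ramp median to 0.35. Leaving out 1 library at a time gave 18 to 21 higher and 8 to 10 lower for the ramp (median 0.34 to 0.44), 4 to 7 and 17 to 21 for the shock (median -0.46 to -0.38), and 25 to 27 and 5 to 8 for the ramp against the shock (median 0.53 to 0.70). In those fits the sign turned for ATG9 after the ramp (-0.18 to 0.018), ATG8 and ATG45 after the shock (-0.18 to 0.029 and -0.19 to 0.24) and ATG11 between the heat treatments (-0.019 to 0.25), none of which were calls. The replicate block by culture moved only the shock call of ATG32, to an adjusted p of 0.0449 (limma), and changed no other call. In edgeR and DESeq2 the calls were 19 and 20 higher and 10 and 9 lower for the ramp, 5 and 5 higher and 21 and 20 lower for the shock, and 26 and 27 higher and 6 and 6 lower between the heat treatments.

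Setting total count scaling and the log2 minimum aside, all 17 other settings kept 18 of the 19 higher and 8 of the 10 lower calls after the ramp, 4 of 5 and 17 of 20 after the shock, and 24 of 27 and 5 of 6 between the heat treatments. The calls lost in at least 1 setting were ATG8, ATG4 and ATG5 for the ramp, ATG10, ATG14, ATG15 and ATG21 for the shock, and ATG4, ATG26, ATG36 and ATG23 between the heat treatments. Depth limits ATG38, ATG10 and ATG16 most, whose fewest reads in a library were 44, 66 and 94.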
